A study of Homo sapiens with 8 samples.

Results

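The respiratory chain and ATP synthase genes of HEL leukaemia cells were the genes whose symbols name a subunit of complexes I to V: the MT-ND, MT-CO, MT-ATP and MT-CYB genes, the numbered NDUFA, NDUFB, NDUFC, NDUFS and NDUFV genes, SDHA to SDHD, the UQCR genes, CYC1, the COX4 to COX8 genes and the ATP5 genes. Members were chosen by symbol. There were 103 of the 19718 genes in the deposited table, of which 13 are encoded by mitochondrial DNA and 90 by nuclear DNA. Of these, 93 reached at least 1 FPKM (mapped fragments divided by transcript length and by library size) in at least 2 of 8 libraries and entered the tests. All 13 mitochondrially encoded members did so, and 80 of the nuclear ones.

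HEL92.1.7 is an erythroleukaemia line that the submitters list as secondary acute myeloid leukaemia, and HEL OTX P/R is its derivative with persister resistance to OTX015, an inhibitor of the BET bromodomain proteins that bind acetylated chromatin. The groups were P/R cells given 1000 nM OTX015 for 8 hours, untreated P/R cells, parental cells given the same dose for the same time, and untreated parental cells, with 2 RNA-seq libraries each. All were grown in RPMI 1640 with serum, and the submitters list the replicates as biological and the treatments as separate. The P/R cells are 1 derivative of 1 line, so a difference between the lines is a difference between these 2 cultures, and the labels do not say whether the derivative is a clone.

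The respiratory chain passes electrons from NADH at complex I and from succinate at complex II through ubiquinone to complex III, and from there through cytochrome c to complex IV, which reduces oxygen. Complexes I, III and IV pump protons across the inner mitochondrial membrane, and complex V, the ATP synthase, uses the returning protons to make ATP. Complexes I, III, IV and V are built from subunits of both genomes, whereas complex II is nuclear encoded throughout. Mitochondrial genes are transcribed as long polycistronic RNAs by a polymerase of their own, POLRMT, from DNA that is packaged by TFAM.

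The deposited values were quantile normalized: once sorted, values averaging 1 FPKM or above differed between libraries by at most 0.136%, and each library summed to 678133 FPKM. Depth per library is therefore unknown, and a value gives a gene's rank in its library rather than an amount of RNA. Log2 values of the tested genes correlated at 0.996 to 0.997 between the libraries of a group and at 0.959 to 0.985 between groups. The erythroid and megakaryocyte markers GATA1 (327 to 386 FPKM), KLF1 (150 to 204 FPKM), TAL1, HBG1, HBG2, ITGA2B and GP9 were at 36.99 FPKM or more in each library. The markers of T cells, B cells, epithelium, stroma, liver and neurons stayed at or below 0.764 FPKM, and MS4A1, CD3D, KRT5 and SNAP25 were listed at 0 in all 8 libraries. In bulk RNA of this kind, fewer cells of a type and less RNA per cell cannot be told apart.

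Tests were made on log2(FPKM + 1) with limma over all 11255 genes that passed the filter, and a gene passed at a Benjamini-Hochberg adjusted p under 0.05. Differences below are on that log2 scale, with their standard errors (SE), and are OTX015 minus untreated or P/R minus parental. With 2 libraries against 2, an exact permutation test of a single value cannot go below p = 0.333, so the tests rest on the spread that limma pools over groups and genes.

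The mitochondrially encoded subunits were among the highest transcripts per length in these cells. MT-CO3, MT-CO1 and MT-CO2, which form the core of complex IV, stood between rank 5 and rank 12 of all genes in each library, at 3836 to 5588 FPKM. MT-ND5 and MT-ND6, proton-pumping subunits of complex I, were the lowest of the 13, at 486 to 866 FPKM and ranks 125 to 186. The 13 genes together held 4.37% to 5.78% of a library's summed FPKM, and the 90 nuclear members held 2.43% to 2.59%. At these ranks the normalization offers few distinct values, so the same value recurs: MT-CO2 was at 4796 FPKM in both untreated P/R libraries, in 1 parental OTX015 library and in both untreated parental libraries. A replicate SD of 0 there is a property of the ranks and not a measure of precision.

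**Figure D1:**
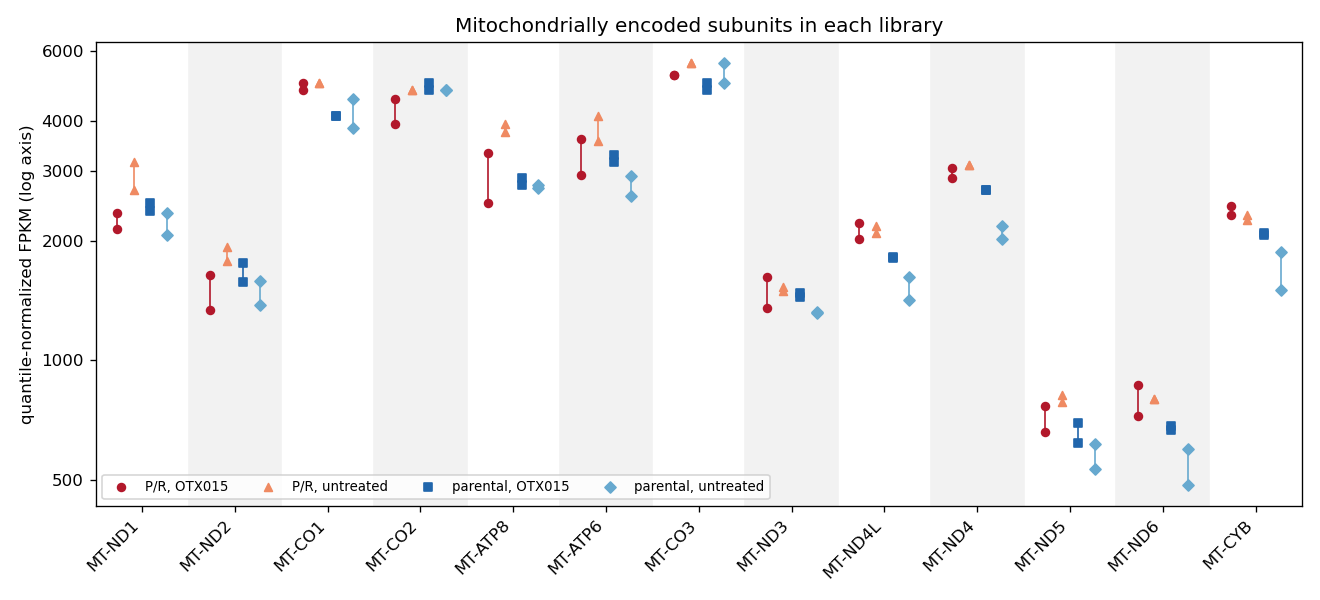
Quantile-normalized FPKM (log axis) of the 13 mitochondrially encoded subunits in gene order along the mitochondrial genome, with 1 point per library and a line joining the 2 libraries of a group. Untreated P/R libraries lie above untreated parental libraries for 11 of 13 genes, and MT-CO2 and MT-CO3 are the 2 exceptions.

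Without drug, mitochondrially encoded subunits were higher in P/R cells than in parental cells. Of the 13, 10 passed as higher and 0 as lower (76.9% called), with a median difference of 0.45. Over all genes tested, 11.6% were called higher and 11.9% lower (23.5% in all), and the median was −0.01. At an unadjusted p under 0.05, 11 of the 13 were higher and 0 lower. The 2 P/R libraries lay above the 2 parental libraries for 11 of 13 members. Over all genes tested, groups lay apart in that direction for 29.3% and in the other for 33%.

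MT-ND4, a proton-pumping subunit of complex I, had 3104 and 3104 FPKM in untreated P/R cells and 2174 and 2016 FPKM in untreated parental cells. The groups did not overlap, and the difference was 0.57 (SE 0.04, limma adjusted p = 2.4e-05). MT-ND4 held rank 22 in both untreated P/R libraries and rank 32 in both OTX015-treated parental libraries. Its small SE, in this and the other comparisons, rests in part on these ties and is no measure of precision to that extent. MT-ND4L, whose reading frame overlaps that of MT-ND4 by 7 bases, had 2092 and 2174 FPKM in untreated P/R cells, against 1616 and 1420 FPKM in untreated parental cells. Its difference was 0.49 (SE 0.06, limma adjusted p = 0.00049), and reads in the overlap could be counted to either gene.

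MT-ND6, the only member on the minus strand of the mitochondrial genome, had 800 and 800 FPKM in untreated P/R cells and 598 and 486 FPKM in untreated parental cells. It was higher by 0.57 (SE 0.10, limma adjusted p = 0.0026). The labels do not say whether the libraries keep strand, so MT-ND6 reads cannot be told apart from antisense reads of the other strand's transcript. MT-CYB, the cytochrome b of complex III, had 2260 and 2322 FPKM in untreated P/R cells and 1876 and 1505 FPKM in untreated parental cells, a difference of 0.45 (SE 0.08, limma adjusted p = 0.0037).

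Both mitochondrially encoded ATP synthase subunits were higher. MT-ATP6, part of the proton channel, had 3569 and 4129 FPKM in untreated P/R cells and 2916 and 2588 FPKM in untreated parental cells, a difference of 0.48 (SE 0.10, limma adjusted p = 0.007). MT-ATP8 had 3745 and 3942 FPKM in untreated P/R cells and 2770 and 2719 FPKM in untreated parental cells, a difference of 0.49 (SE 0.10, limma adjusted p = 0.0085). The reading frames of these 2 genes overlap by 46 bases, and their values may share reads.

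MT-ND1, MT-ND2 and MT-ND5, which form the membrane arm of complex I with MT-ND4, were also higher in untreated P/R cells, by 0.40, 0.33 and 0.49. MT-ND3 had 1531 and 1490 FPKM in untreated P/R cells and 1318 and 1326 FPKM in untreated parental cells; the groups lay apart, but the difference of 0.19 did not pass (SE 0.07, limma adjusted p = 0.068). Of the complex IV genes only MT-CO1, which carries the haem and copper site where oxygen is reduced, passed: it had 4986 and 4986 FPKM in untreated P/R cells and 4536 and 3836 FPKM in untreated parental cells (0.26, SE 0.06, limma adjusted p = 0.018). MT-CO2 differed by 0.00 and MT-CO3 by 0.08, and neither passed.

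The tested nuclear members leaned the same way without drug, but by less, with a median difference of 0.04. In P/R cells 11 of 80 were higher and 5 lower (20.0% called, against 23.5% of all genes). Differences were above 0 for 52 of the 80, against 5386 of all 11255 genes. The P/R libraries lay above the parental ones for 36 and below for 19, against 29.3% and 33% of all genes. At an unadjusted p under 0.05 in limma, 19 were higher and 10 lower, against 1907 and 2079 of all genes. The 80 include 4 members of complex II and 5 with no place in a complex, among them ATP5SL, named for its likeness to ATP5S. By complex, the median of the mitochondrially encoded genes was 0.49 against 0.04 for the nuclear genes in complex I, 0.45 against 0.10 in complex III, 0.08 against 0.05 in complex IV and 0.48 against 0.02 in complex V. The mitochondrially encoded complex IV genes stood between rank 5 and rank 12, where recurring values limit the differences that can be seen. MT-CO2 held rank 8 in each untreated library. The ratio of summed mitochondrial to summed nuclear FPKM was 2.17 and 2.24 in untreated P/R cells and 1.95 and 1.74 in untreated parental cells.

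**Figure D2:**
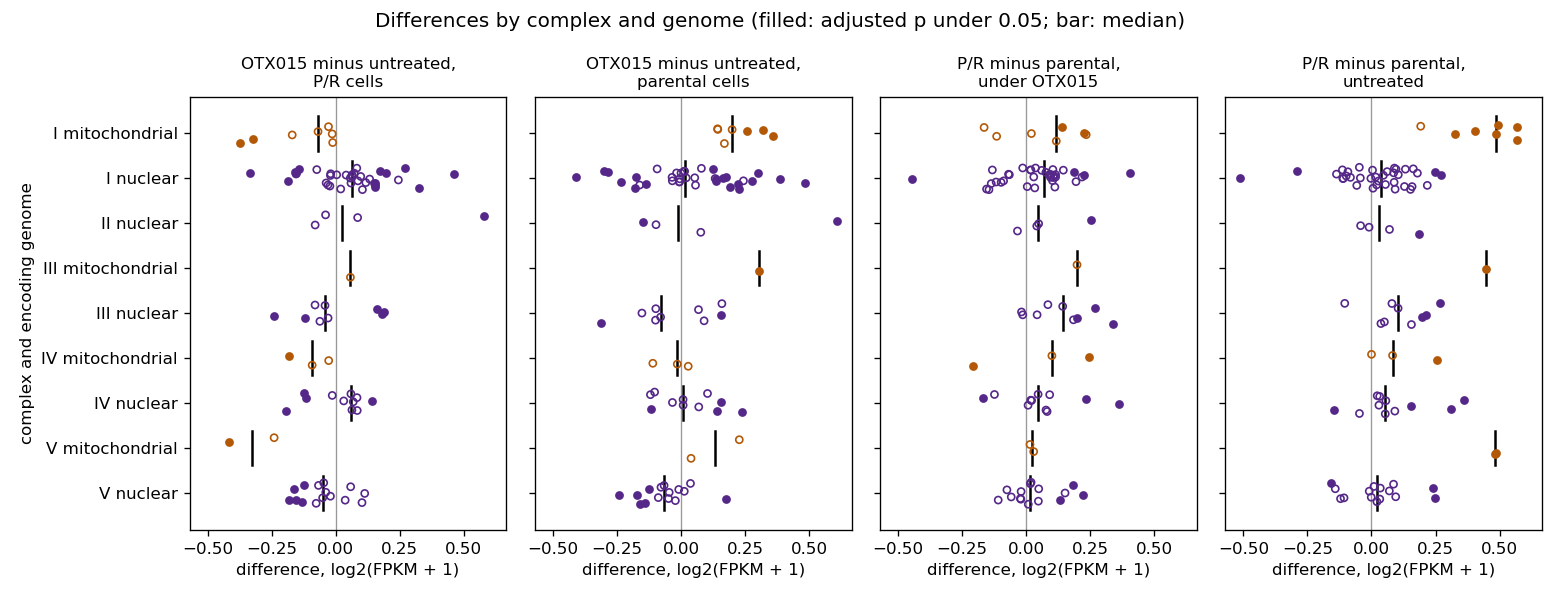
Difference in log2(FPKM + 1) for each tested member (x axis), by complex and encoding genome (y axis), in the 4 comparisons; filled points passed at adjusted p under 0.05 and bars are medians, and the 5 tested nuclear members with no place in a complex are not drawn. In the untreated comparison of lines the mitochondrial medians of complexes I, III and V lie between 0.45 and 0.49, and the nuclear medians lie between 0.02 and 0.10.

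The count of 10 moved with the filter and with single libraries. With no filter on low values, over 16730 genes, 5 of the 13 passed. Replicate 2 of the untreated parental cells was below replicate 1 for 11 of 13 mitochondrially encoded genes, with a median log2 difference of −0.19, against 0.03 over the tested nuclear members and 0 over all genes. Without that library 7 of the 13 passed and the median difference was 0.31; without replicate 2 of the untreated P/R cells 6 passed and the median was 0.38.

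With drug in both lines, 3 of the 13 mitochondrially encoded genes were higher in P/R cells, 1 was lower and 9 did not pass, with a median of 0.10. Whether the difference between the lines changed with drug was tested directly, and 0 of the 13 passed that test (limma; 0 higher and 9 lower at an unadjusted p under 0.05). With drug, 30.8% were called, against 24.4% of all genes tested (12.7% higher and 11.7% lower). The P/R libraries lay above the parental ones for 6 of 13 genes and below for 2, against 28.2% and 32.6% of all genes. The 3 higher genes were MT-ND4 (0.14, limma adjusted p = 0.043), MT-ND4L (0.22, limma adjusted p = 0.03) and MT-CO1 (0.24, limma adjusted p = 0.022), which had also passed without drug. MT-CO2, which holds the copper centre that takes electrons from cytochrome c, had 3942 and 4536 FPKM in OTX015-treated P/R cells and 4796 and 4986 FPKM in OTX015-treated parental cells. It was lower by 0.21 on the log2 scale (log2 difference −0.21, SE 0.06, limma adjusted p = 0.025). None of these 4 calls held in every alternative: the higher count was 0 without the filter, without the variance trend, without either parental OTX015 library or without replicate 2 of the OTX015-treated P/R cells, and 5 without replicate 1 of the OTX015-treated P/R cells.

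Under OTX015 the mitochondrially encoded genes that passed were all lower in P/R cells and all higher in parental cells, although no difference between the lines in this response passed its own test. The untreated libraries of each line enter both its response and the untreated comparison of lines, so these results are not independent of each other. In P/R cells 0 of the 13 rose and 4 fell, with a median of −0.09. Of all genes tested, 22.5% were called higher and 21.8% lower. At an unadjusted p under 0.05, 0 were higher and 5 lower. The treated P/R libraries lay above the untreated ones for 0 of the 13 and below for 7, against 37.8% and 34.9% of all genes. In parental cells 4 of the 13 mitochondrially encoded genes rose and 0 fell, with a median of 0.17. Of all genes tested, 25.7% were called higher and 24.7% lower. At an unadjusted p under 0.05, 6 were higher and 0 lower. The treated parental libraries lay above the untreated ones for 8 of the 13 and below for 0, against 39.2% and 36.4% of all genes. None of the 13 passed in both lines, and the 30.8% called in each line lay below the 44.2% and 50.4% of all genes called in P/R and in parental cells.

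In P/R cells the genes that fell were MT-ATP8, MT-ND1, MT-ND2 and MT-CO2. MT-ND1 had 2141 and 2347 FPKM in OTX015-treated P/R cells and 2684 and 3150 FPKM in untreated P/R cells. The groups did not overlap, and the log2 difference was −0.38 (SE 0.08, limma adjusted p = 0.0054). MT-ATP8 had 2488 and 3325 FPKM in OTX015-treated P/R cells and 3745 and 3942 FPKM in untreated P/R cells, a log2 difference of −0.42 (SE 0.10, limma adjusted p = 0.0098). MT-ND4 did not pass in P/R cells (−0.07, limma adjusted p = 0.22), and MT-CYB did not either (0.06, limma adjusted p = 0.61).

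In parental cells the genes that rose were MT-ND4, MT-ND4L, MT-ND6 and MT-CYB. MT-ND4 had 2684 and 2684 FPKM in OTX015-treated parental cells and 2174 and 2016 FPKM in untreated parental cells, a rise of 0.36 (SE 0.04, limma adjusted p = 0.00015). MT-CYB had 2062 and 2092 FPKM in OTX015-treated parental cells and 1876 and 1505 FPKM in untreated parental cells, a rise of 0.31 (SE 0.08, limma adjusted p = 0.012). These 4 genes lie next to one another in gene order, apart from MT-ND5, which lies between MT-ND4 and MT-ND6 and did not pass (0.20, limma adjusted p = 0.083). None of the 3 complex IV genes passed, and their median was −0.01.

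The difference in response between the lines was tested directly. It is the same test as that of whether the difference between the lines changed with drug. For 0 of the 93 tested members did the response in P/R cells differ from that in parental cells at adjusted p under 0.05 by limma, where 0.0622% of all genes tested passed as higher and 0.0178% as lower. At an unadjusted p under 0.05, 0 of the 13 mitochondrially encoded genes were higher and 9 lower, and 5 of the 80 nuclear members were higher and 2 lower, against 600 higher and 480 lower of the 11255 genes. The median difference in response was −0.33 over the mitochondrially encoded genes, 0.00 over the nuclear members and 0.00 over all genes. MT-ND4 came nearest to the threshold (−0.43, SE 0.06, limma adjusted p = 0.056), and it passed with a pseudocount of 5 or with a filter at a mean of 5 FPKM. The remaining 12 ranged from −0.52 (MT-ND1) to 0.02 (MT-CO3).

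These counts moved with the filter and single libraries as well. With no filter, 1 of the 13 was lower under OTX015 in P/R cells and 2 were higher in parental cells. Replicate 2 of the OTX015-treated P/R cells was above replicate 1 for 12 of the 13 genes, with a median log2 difference of 0.20. Without replicate 2, 7 of the 13 genes were lower under OTX015 in P/R cells; without replicate 1, 2 were; and without replicate 2 of the untreated P/R cells, 1 was. In parental cells the counts were 2 higher and 2 lower without replicate 2 of the untreated cells, 2 higher and 0 lower without replicate 2 of the treated cells, and 6 higher and 0 lower without either treated P/R library, which enters only the pooled spread.

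**Figure D3:**
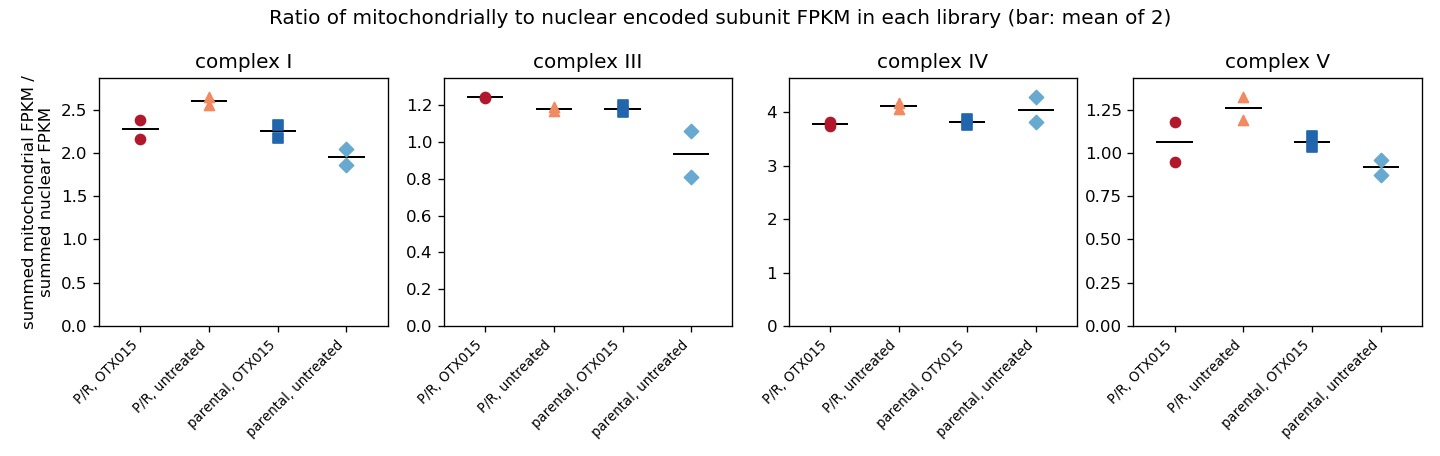
Ratio of summed mitochondrially encoded to summed nuclear encoded subunit FPKM (y axis, from 0) in each library for complexes I, III, IV and V, with the group mean as a bar. In complex I the untreated P/R libraries are highest at 2.55 and 2.65 and the untreated parental libraries lowest at 2.04 and 1.86, and the treated groups of both lines lie between them.

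In complexes I and V the mean ratio of the 2 genomes was highest in untreated P/R cells and lowest in untreated parental cells. In complex I it was 2.27 ± 0.15 in OTX015-treated P/R cells, 2.60 ± 0.07 in untreated P/R cells, 2.25 ± 0.11 in OTX015-treated parental cells and 1.95 ± 0.13 in untreated parental cells (mean ± SD, n = 2 each). In complex V it was 1.06 ± 0.16 in OTX015-treated P/R cells, 1.26 ± 0.09 in untreated P/R cells, 1.07 ± 0.05 in OTX015-treated parental cells and 0.92 ± 0.06 in untreated parental cells. Libraries overlapped in complex V, where replicate 1 of the OTX015-treated P/R cells, at 0.949, was below replicate 1 of the untreated parental cells, at 0.960. In complex III it was highest in OTX015-treated P/R cells, at 1.24 ± 0.003, against 1.18 ± 0.01 in untreated P/R cells, 1.18 ± 0.03 in OTX015-treated parental cells and 0.94 ± 0.18 in untreated parental cells. In complex IV the means ran from 3.79 to 4.12, and the untreated parental libraries alone spanned 3.81 to 4.29. No test was made of these sums.

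Complex II, which feeds electrons from succinate, had the member that OTX015 moved most. SDHA, the flavoprotein that oxidizes succinate, had 121.5 and 121.4 FPKM in OTX015-treated P/R cells and 79.8 and 82.0 FPKM in untreated P/R cells. In parental cells it had 118.6 and 117.4 FPKM with OTX015 and 75.1 and 79.0 FPKM without. Treated and untreated groups lay far apart in both lines. The P/R libraries were slightly above the parental ones under either treatment, by 0.04 with OTX015 and 0.07 without, and neither difference passed (limma adjusted p = 0.57 and 0.31).

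The rise of SDHA was 0.58 in P/R cells (SE 0.05, limma adjusted p = 1.9e-05) and 0.61 in parental cells (SE 0.05, limma adjusted p = 9.7e-06). It held in all 16 alternatives in each line. The other subunits of complex II did not move with it: SDHB, the iron-sulfur subunit, fell in parental cells (−0.15, limma adjusted p = 0.012), and in P/R cells its difference was −0.08 (limma adjusted p = 0.13). The membrane anchors SDHC and SDHD did not pass in either line, with differences between −0.10 and 0.09. SDHA has near-identical copies elsewhere in the genome, and how the authors shared out multiply mapped reads is not stated, so its level is uncertain to that extent.

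**Figure D4:**
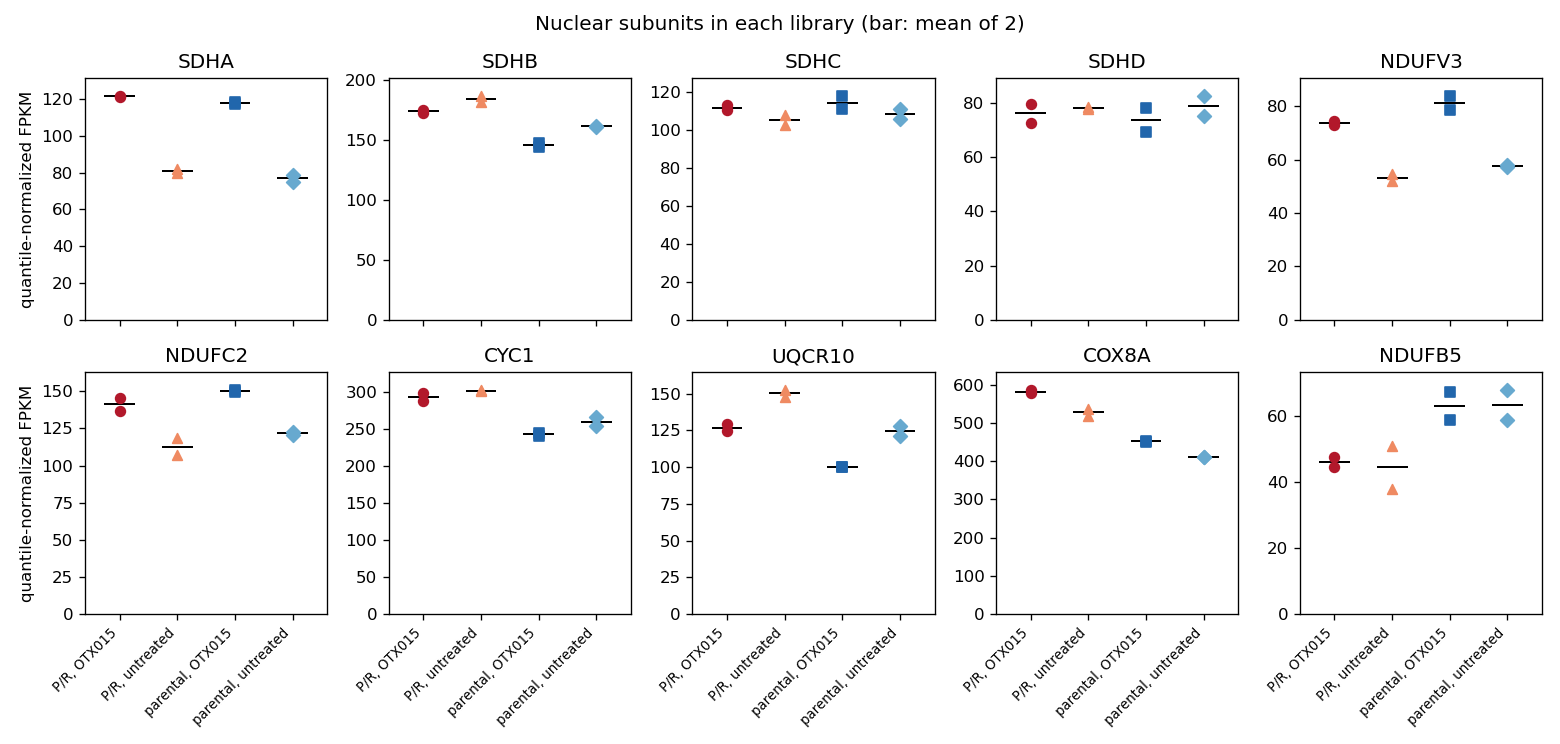
Quantile-normalized FPKM (y axes, from 0) of 10 nuclear encoded members in each library, with the mean of the 2 libraries of a group as a bar. SDHA and NDUFV3 are higher in both treated groups than in both untreated groups, whereas COX8A and CYC1 are higher in both P/R groups than in the parental groups under the same treatment.

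Nuclear members as a whole were balanced under OTX015. In P/R cells 15 of 80 rose and 15 fell (37.5% called, against 44.2% of all genes), with a median of 0.03. In parental cells 19 rose and 15 fell (42.5% called, against 50.4% of all genes), with a median of 0.00. There were 11 nuclear members that rose in both lines: SDHA, NDUFV3, NDUFC2, NDUFB11, NDUFA7, NDUFV1, NDUFS7, NDUFB2, UQCRC1, COX8A and ATP5SL. Another 11 fell in both, among them NDUFA5, UQCR10, NDUFC1, NDUFB7, NDUFS6, ATP5F1, ATP5G1, ATP5G2, ATP5L and COX5A. No member passed in opposite directions in the 2 lines. The share of all genes called alike in both lines was not computed, so these joint counts are not read as particular to the members.

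Promoter sequences are shown for SDHA and NDUFV3, which rose most under OTX015 in both lines, for NDUFA5 and UQCR10, which fell in both, and for COX8A, the nuclear member that differed most between the untreated lines among those that were higher. They are RefSeq windows on GRCh38.p14, from 250 bases before to 50 bases after the annotated start, written along the gene's strand: SDHA at chr5:218070-218369 (plus strand), NDUFV3 at chr21:42893059-42893358 (plus), NDUFA5 at chr7:123601602-123601901 (minus), UQCR10 at chr22:29767119-29767418 (plus) and COX8A at chr11:63974370-63974669 (plus). Capitals mark matches to 4 words searched on both strands: the NRF1 word, a GC-rich core with a free base of the site bound by nuclear respiratory factor 1; CCGGAAG, the core of the site of ETS factors such as GABP; AAGATGGC (GCCATCTT) of YY1; and the palindrome CACGTG, the E-box bound by MYC.
SDHA: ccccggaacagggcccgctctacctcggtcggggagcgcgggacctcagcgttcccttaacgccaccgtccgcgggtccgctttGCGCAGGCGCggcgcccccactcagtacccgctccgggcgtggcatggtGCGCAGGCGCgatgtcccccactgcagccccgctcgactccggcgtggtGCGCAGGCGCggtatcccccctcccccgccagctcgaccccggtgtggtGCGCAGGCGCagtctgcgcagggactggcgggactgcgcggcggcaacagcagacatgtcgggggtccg
NDUFV3: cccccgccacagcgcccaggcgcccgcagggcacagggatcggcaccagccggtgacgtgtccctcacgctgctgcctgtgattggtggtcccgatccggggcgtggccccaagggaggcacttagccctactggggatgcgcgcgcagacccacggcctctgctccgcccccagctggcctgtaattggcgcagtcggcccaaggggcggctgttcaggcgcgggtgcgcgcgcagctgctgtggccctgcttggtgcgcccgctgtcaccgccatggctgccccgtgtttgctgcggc
NDUFA5: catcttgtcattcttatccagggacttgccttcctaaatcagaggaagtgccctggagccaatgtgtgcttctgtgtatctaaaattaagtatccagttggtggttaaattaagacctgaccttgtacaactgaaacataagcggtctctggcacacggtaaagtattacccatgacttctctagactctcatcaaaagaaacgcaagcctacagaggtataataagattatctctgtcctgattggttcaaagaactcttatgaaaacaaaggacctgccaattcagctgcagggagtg
UQCR10: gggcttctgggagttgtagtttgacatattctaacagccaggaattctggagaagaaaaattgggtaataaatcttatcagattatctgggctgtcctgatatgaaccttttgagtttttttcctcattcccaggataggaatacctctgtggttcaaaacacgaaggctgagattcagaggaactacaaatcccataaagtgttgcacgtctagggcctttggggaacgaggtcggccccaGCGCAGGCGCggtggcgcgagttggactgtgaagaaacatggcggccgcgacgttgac
COX8A: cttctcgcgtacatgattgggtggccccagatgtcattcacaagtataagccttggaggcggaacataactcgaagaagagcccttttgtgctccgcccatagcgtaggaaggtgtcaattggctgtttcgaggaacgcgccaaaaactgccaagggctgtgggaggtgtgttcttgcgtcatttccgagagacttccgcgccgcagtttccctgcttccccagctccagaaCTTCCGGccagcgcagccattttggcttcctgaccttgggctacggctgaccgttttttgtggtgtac

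The SDHA window held the NRF1 word 4 times, each time as GCGCAGGCGC, at positions 85 to 94, 134 to 143, 183 to 192 and 232 to 241 counted from the 5′ end of the window. The UQCR10 window, of a gene that fell, held the same letters 1 time, at 243 to 252, and the COX8A window held the ETS word as CTTCCGG at 233 to 239. The NDUFV3 and NDUFA5 windows held none of the 4. Only the first listed window of each gene was read, so these results do not cover any other start. A match is a run of letters and no measured binding site.

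The set of RefSeq promoters used held an entry under a matching symbol for 64 of the 80 tested nuclear members. Members not matched included ATP5B, ATP5D, ATP5G3, ATP5J2, ATP5J2-PTCD1, ATP5S, COX6C, CYC1, NDUFA4, NDUFB5, NDUFB9, NDUFC2, NDUFS5, SDHC and UQCRB. The NRF1 word was in 15 of the 64 windows (23.4%), in 5.78% of all 35116 promoters and in 12.6% of the 9163 promoters of tested genes. The ETS word was in 19 (29.7%), against 10.3% and 21.1%. The YY1 word was in 11 (17.2%), against 2.89% and 5.85%. The E-box was in 7 (10.9%), against 7.26% and 10.6%. The ETS word ends in the AAG with which the YY1 word begins, so a single stretch can count for both.

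Within complex I, which oxidizes NADH, the changes under OTX015 ran in both directions. Of its 36 nuclear members, 9 rose and 5 fell in P/R cells, and 12 rose and 7 fell in parental cells. That is 38.9% called in P/R cells and 52.8% in parental cells, against 44.2% and 50.4% of all genes tested. NDUFV3, an accessory subunit of the NADH-oxidizing module, had 74.4 and 73.0 FPKM in OTX015-treated P/R cells and 54.7 and 51.9 FPKM in untreated P/R cells, and 78.6 and 83.7 FPKM in OTX015-treated parental cells and 58.1 and 57.3 FPKM in untreated parental cells. It rose by 0.46 in P/R cells (limma adjusted p = 0.00014) and by 0.48 in parental cells (limma adjusted p = 7.6e-05), SE 0.05 each. NDUFC2, an accessory subunit of the membrane arm, rose by 0.32 in P/R cells (SE 0.06, limma adjusted p = 0.0014) and by 0.30 in parental cells (SE 0.06, limma adjusted p = 0.0017). NDUFB11, whose gene lies on the X chromosome, rose by 0.27 and 0.28 in P/R and parental cells.

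The catalytic core of complex I was split. NDUFV1, which binds NADH, rose by 0.17 in P/R cells and 0.22 in parental cells, and NDUFS7, which carries the last iron-sulfur cluster, rose by 0.20 in P/R cells and 0.13 in parental cells. NDUFS8 rose in P/R cells (0.15, limma adjusted p = 0.02), and in parental cells its difference was −0.01. NDUFV2 fell in parental cells (−0.18, limma adjusted p = 0.021), and in P/R cells its difference was 0.06. Neither difference in response between the lines passed (limma adjusted p = 0.45 and 0.35). NDUFS1 and NDUFS3 did not pass in either line. The NDUFS7 call held in 14 of 16 alternatives in P/R cells and 8 of 16 in parental cells (adjusted p up to 0.206 by limma), where it was lost without the filter, without the variance trend, with the parental groups alone, and without replicate 2 of the untreated parental cells, either parental OTX015 library or either untreated P/R library. The NDUFV1 call held in 11 and 14 of 16 in P/R and parental cells, NDUFS8 in 12 of 16 in P/R cells and NDUFV2 in 13 of 16 in parental cells, and each was lost without certain single libraries of its own comparison.

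Among the accessory subunits of complex I that fell, NDUFA5 had 16.0 and 19.5 FPKM in OTX015-treated P/R cells and 21.6 and 23.5 FPKM in untreated P/R cells, a log2 difference of −0.33 (SE 0.09, limma adjusted p = 0.016). In parental cells it had 16.6 and 15.9 FPKM with OTX015 and 19.7 and 20.4 FPKM without, a log2 difference of −0.29 (SE 0.09, limma adjusted p = 0.028). NDUFC1 fell by 0.19 in P/R cells (limma adjusted p = 0.038) and by 0.41 in parental cells (limma adjusted p = 0.00067). The NDUFA5 call was lost in parental cells without the filter or without any 1 of the 4 parental libraries. In P/R cells the NDUFA5 call was lost without replicate 2 of the untreated or replicate 1 of the treated cells. The NDUFC1 call was lost in P/R cells without the filter, without the variance trend or without any 1 of the 4 P/R libraries.

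In complex III, which passes electrons from ubiquinol to cytochrome c, 3 nuclear members rose and 2 fell in P/R cells, and 1 rose and 1 fell in parental cells. Of its 9 tested nuclear members these are 55.6% in P/R cells and 22.2% in parental cells, against 44.2% and 50.4% of all genes tested. UQCR10, a small subunit bound to the cytochrome c1 part, had 124.6 and 129.3 FPKM in OTX015-treated P/R cells and 148.1 and 152.3 FPKM in untreated P/R cells, a log2 difference of −0.24 (SE 0.05, limma adjusted p = 0.0027). In parental cells it had 99.8 and 100.4 FPKM with OTX015 and 121.0 and 128.3 FPKM without, a log2 difference of −0.31 (SE 0.05, limma adjusted p = 0.00051). UQCRC1, a core protein of the matrix side, rose by 0.16 in each line. The catalytic subunits CYC1 (cytochrome c1) and UQCRFS1 (the Rieske iron-sulfur protein) did not pass in either line, with differences between −0.10 and −0.04.

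Complex IV, which reduces oxygen, had 1 nuclear member that rose and 3 that fell in P/R cells, and 3 that rose and 1 that fell in parental cells. That is 36.4% called in each line, against 44.2% of all genes in P/R cells and 50.4% in parental cells. COX8A rose by 0.14 in both, and COX5A, which together with COX4I1 is added early to the MT-CO1 core, fell by 0.12 in both. Only the broadly expressed isoforms were measured: COX4I1 (360 to 397 FPKM), COX6A1, COX6B1, COX7A2, COX7B and COX8A passed the filter. Their partners COX4I2, COX6A2, COX7B2 and COX8C were listed at 0 in every library, and COX7A1 (muscle), COX6B2 (testis) and NDUFA4L2, the paralogue of the subunit NDUFA4, stayed at or below 0.658 FPKM. The copies ATP5EP2, ATP5L2 and UQCRHL also failed the filter.

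Of the nuclear members of complex V, 0 of 15 rose and 5 fell under OTX015 in P/R cells (0 and 6 at an unadjusted p under 0.05 in limma), and 1 rose and 5 fell in parental cells. The shares called, 33.3% in P/R cells and 40% in parental cells, lay below the 44.2% and 50.4% of all genes tested. The c-ring, the rotor that protons turn, is made from 3 genes for 1 mature protein. ATP5G2 had 665 and 649 FPKM in OTX015-treated P/R cells and 731 and 710 FPKM in untreated P/R cells, and 602 and 598 FPKM in OTX015-treated parental cells and 710 and 710 FPKM in untreated parental cells. It fell by 0.13 in P/R cells (limma adjusted p = 0.012) and by 0.24 in parental cells (limma adjusted p = 0.00037). ATP5G1 fell by 0.13 and 0.14 in P/R and parental cells, and ATP5G3 did not pass in either (−0.05 and −0.07). The F1 catalytic subunits ATP5A1 and ATP5B did not pass in any comparison, with differences between −0.12 and 0.06.

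Between the lines, 9 nuclear members were higher in P/R cells both without and with drug, among them COX8A, COX7B, UQCR10, CYC1, UQCRFS1, SDHB, ATP5F1 and ATP5I. The share of all genes that were higher in both was not computed. Under OTX015, 12 of 80 nuclear members were higher and 4 lower (20.0% called, against 24.4% of all genes), with a median of 0.04. Differences were above 0 for 54 of the 80, against 5283 of all 11255 genes. The P/R libraries lay above the parental ones for 30 and below for 15, against 28.2% and 32.6% of all genes. The shared genes include CYC1, UQCR10 and UQCRFS1 of complex III and SDHB of complex II. The 2 comparisons of lines share no library, but they share the pooled spread and the 2 cultures, so they are not independent. Over the alternatives the COX7B difference ran from 0.13 to 0.33 with OTX015 and from 0.27 to 0.35 without. Its call with OTX015 was lost without the filter, without the variance trend or with only the groups compared. The same call was lost without either parental OTX015 library or without replicate 2 of the OTX015-treated P/R cells. Its call without drug was lost without replicate 1 of the untreated P/R cells. Values of COX8A, UQCR10, CYC1 and SDHB follow.

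COX8A, a small membrane subunit of complex IV, had 585 and 578 FPKM in OTX015-treated P/R cells and 453 and 450 FPKM in OTX015-treated parental cells. Without drug it had 518 and 536 FPKM in P/R cells and 411 and 409 FPKM in parental cells. The groups lay apart and the difference was 0.36 in both comparisons (SE 0.03, limma adjusted p = 8.2e-05 with OTX015 and 9.4e-05 without). The 40 nearest tested genes on chromosome 11 had medians of 0.08 and −0.05 in the same comparisons.

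UQCR10 was higher in P/R cells by 0.34 with OTX015 (SE 0.05, limma adjusted p = 0.00067) and by 0.27 without (limma adjusted p = 0.0027). CYC1 had 298 and 287 FPKM in OTX015-treated P/R cells and 240.5 and 245 FPKM in OTX015-treated parental cells, a difference of 0.27 (limma adjusted p = 0.0011), and was higher by 0.21 without drug. SDHB had 172.4 and 175.5 FPKM in OTX015-treated P/R cells and 147.4 and 143.9 FPKM in OTX015-treated parental cells, a difference of 0.25 (limma adjusted p = 0.0014), and was higher by 0.19 without drug. The 40 neighbours of each of these 3 genes had medians between −0.06 and 0.05.

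NDUFB5, COX7C and ATP5SL were lower in P/R cells in both comparisons. NDUFB5, an accessory subunit of the complex I membrane arm, had 44.4 and 47.4 FPKM in OTX015-treated P/R cells and 67.1 and 58.7 FPKM in OTX015-treated parental cells, a log2 difference of −0.44 (SE 0.13, limma adjusted p = 0.033). Without drug it had 50.9 and 37.7 FPKM in P/R cells and 58.7 and 67.6 FPKM in parental cells, a log2 difference of −0.51 (SE 0.13, limma adjusted p = 0.018). Without drug the NDUFB5 call was lost without the filter or without replicate 2 of either line, with log2 differences between −0.72 and −0.30 and adjusted p up to 0.111 by limma over the 16 alternatives. With OTX015 it was lost without the filter, the variance trend, replicate 1 of the parental cells or either P/R library. The COX7C and ATP5SL calls held in 13 and 11 of 16 alternatives with OTX015 and in 11 each without, and each was lost without certain single libraries. The 40 nearest tested genes to NDUFB5 on chromosome 3 were also lower, with medians of −0.39 with OTX015 and −0.33 without; copy number was not measured, and its part in the difference was not tested. NDUFC2-KCTD14, a readthrough transcript near the filter, was lower in P/R cells under OTX015 (0.718 and 1.14 FPKM against 2.44 and 2.82 FPKM; log2 difference −0.92, limma adjusted p = 0.0014), and its reads cannot be told apart from those of NDUFC2 in the shared exons.

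Genes that serve the chain without being subunits were read from lists that, like the members, were chosen with earlier results of these data known. Of 25 tested genes for mitochondrial transcription and transcript stability, 0 rose and 9 fell under OTX015 in P/R cells (0 and 11 at an unadjusted p under 0.05 in limma), and 3 rose and 10 fell in parental cells, with medians of −0.16 in each line, against 0.01 and 0.02 over all genes. The shares called were 36% in P/R cells and 52% in parental cells, against 44.2% and 50.4% of all genes tested. TFB2M, the factor that opens the mitochondrial promoter for POLRMT, had 13.5 and 15.5 FPKM in OTX015-treated P/R cells and 24.4 and 24.3 FPKM in untreated P/R cells, and 12.5 and 11.4 FPKM in OTX015-treated parental cells and 20.8 and 20.9 FPKM in untreated parental cells. It fell by 0.71 in P/R cells (SE 0.08, limma adjusted p = 0.00014) and by 0.76 in parental cells (SE 0.08, limma adjusted p = 7.1e-05). PNPT1, a mitochondrial exoribonuclease, fell by 0.78 in P/R cells and 0.69 in parental cells. FASTKD3, an RNA-binding protein of mitochondria, fell by 0.52 and 0.51 in P/R and parental cells. MTPAP, the mitochondrial poly(A) polymerase, fell by 0.35 and 0.27 in P/R and parental cells, and it was higher in P/R than in parental cells by 0.49 with OTX015 and 0.56 without, beside medians of 0.14 and 0.18 over its neighbours on chromosome 10.

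Of the 12 tested genes for mitochondrial DNA maintenance, 1 rose and 4 fell under OTX015 in P/R cells, and 3 rose and 4 fell in parental cells (41.7% and 58.3% called, against 44.2% and 50.4% of all genes). POLG, the catalytic subunit of the mitochondrial DNA polymerase, had 55.5 and 51.5 FPKM in OTX015-treated P/R cells and 33.4 and 32.9 FPKM in untreated P/R cells, and 53.8 and 53.5 FPKM in OTX015-treated parental cells and 35.6 and 34.6 FPKM in untreated parental cells. It rose by 0.67 (limma adjusted p = 2.5e-05) and 0.60 (limma adjusted p = 3.2e-05) in P/R and parental cells, SE 0.06 each. SSBP1, which coats single-stranded mitochondrial DNA, fell by 0.38 and 0.46 in P/R and parental cells. LIG3, a DNA ligase, was lower in P/R than in parental cells by 0.82 on the log2 scale with OTX015 (log2 difference −0.82) and by 0.72 without (−0.72), beside medians of −0.48 and −0.52 over its neighbours on chromosome 17. RRM2B, a ribonucleotide reductase subunit, rose in parental cells (0.57, limma adjusted p = 0.0099); in P/R cells its difference was 0.33 (limma adjusted p = 0.091).

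Assembly factors, which build the complexes but are not part of them, gave 0 higher and 3 lower of 13 for complex I in P/R cells under OTX015 (1 and 4 at an unadjusted p under 0.05 in limma), and 1 higher and 5 lower in parental cells. That is 23.1% called in P/R cells and 46.2% in parental cells, against 44.2% and 50.4% of all genes. NDUFAF6 fell by 0.42 and 0.50 in P/R and parental cells, TMEM126B fell by 0.39 in each, and NDUFAF4 fell in parental cells by 0.50 (in P/R cells −0.20, limma adjusted p = 0.077). Of 31 factors for complexes II to V, 5 rose and 10 fell in P/R cells and 5 rose and 7 fell in parental cells (48.4% and 38.7% called). ATPAF2, an assembly factor of the F1 part of ATP synthase, rose by 0.72 and 0.83, TTC19, of complex III, by 0.46 and 0.68, and COA6, of complex IV, fell by 0.67 and 0.59, in P/R and parental cells each time. COX10, which makes the haem of complex IV, was higher in P/R than in parental cells by 0.68 with OTX015 and 0.69 without, beside medians of 0.49 and 0.47 over its neighbours on chromosome 17. In the comparisons of lines, complex I factors gave 2 higher and 0 lower with OTX015 and 0 higher and 1 lower without (NUBPL, −0.54, beside a median of −0.37 over its neighbours on chromosome 14). The factors for complexes II to V gave 3 higher and 3 lower with OTX015 and 6 higher and 3 lower without. Of those higher without drug, SCO1, TTC19 and ATPAF2 also lie on chromosome 17, beside neighbour medians of 0.48, 0.44 and 0.45. For SDHAF1 and PET100 these medians were −0.06 and 0.03. Of those lower without drug, COA3 had a neighbour median of −0.52, COX14 of −0.13 and UQCC2 of −0.02. The part of the neighbourhood in these counts was not tested.

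Among 16 tested electron carriers and side entries to the ubiquinone pool, 3 rose and 2 fell under OTX015 in P/R cells, and 5 rose and 3 fell in parental cells (31.2% and 50% called, against 44.2% and 50.4% of all genes). COQ3, a methyltransferase of ubiquinone synthesis, fell by 0.41 in P/R cells (limma adjusted p = 0.0057) and by 0.92 in parental cells (limma adjusted p = 4.7e-05). DHODH, the pyrimidine synthesis enzyme that reduces ubiquinone, fell by 0.57 and 0.66 in P/R and parental cells. PDSS1, which makes the ubiquinone side chain, was higher in P/R than in parental cells by 0.41 with OTX015 and 0.56 without. Its neighbours on chromosome 10 had medians of 0.18 and 0.20. GPD2 was higher in P/R cells by 0.63 with OTX015 and 0.94 without. It reached 1 FPKM only in replicate 2 of the P/R cells with OTX015 (1.09 FPKM) and without (1.48 FPKM). GPD2 thus passed the filter only through the line where it was higher, so the filter favoured a difference in this direction.

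Of 9 tested regulators of respiratory genes, 0 rose and 3 fell under OTX015 in P/R cells (1 and 3 at an unadjusted p under 0.05 in limma), and 2 rose and 3 fell in parental cells (33.3% and 55.6% called, against 44.2% and 50.4% of all genes). ESRRA, a nuclear receptor that acts on many respiratory genes, had 47.6 and 40.1 FPKM in OTX015-treated P/R cells and 52.1 and 50.6 FPKM in untreated P/R cells, and 31.0 and 30.5 FPKM in OTX015-treated parental cells and 41.2 and 42.1 FPKM in untreated parental cells. It fell by 0.23 in P/R cells and 0.43 in parental cells, and it was higher in P/R than in parental cells by 0.49 with OTX015 and 0.29 without. PPRC1, a coactivator that works with NRF1, fell by 0.29 and 0.30 in P/R and parental cells. NRF1 itself rose in parental cells (0.26, limma adjusted p = 0.039; in P/R cells 0.11), and HIF1A, the oxygen-regulated factor, rose in parental cells (0.47, limma adjusted p = 0.00062; in P/R cells 0.19, limma adjusted p = 0.054). Between the lines, the counts of genes higher and lower in P/R cells with OTX015 were 3 and 2 for mitochondrial transcription, 0 and 2 for DNA maintenance, 3 and 1 for electron carriers and 1 and 1 for the regulators. Without drug they were 2 and 2, 0 and 2, 2 and 1, and 2 and 1 for the lists in that order. Over the 106 genes of all 6 lists, 19.8% were called between the lines with OTX015 and 20.8% without, against 24.4% and 23.5% of all genes. Whether any of these responses differed between the lines was tested as above, and 0 of the 106 tested genes on the 6 lists passed that test by limma (5 higher and 4 lower at an unadjusted p under 0.05).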

How the data were processed

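Total RNA from 8 cultures was sequenced after DNase treatment, per the labels' protocols; selection of poly(A) RNA and strand are not stated there. The submitters' processing notes name TopHat2 2.0, Cufflinks 2.0 and the hg19 genome. The authors deposited 1 table of FPKM values for coding genes. The unit is not named in the table: it was inferred from those tools and from the values, whose sorted columns are nearly equal, as after quantile normalization. No count or depth can be recovered from it, so no counting interval is given, and a fold change understates the change of low genes.

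Values were analysed as log2(FPKM + 1). The 11255 genes that reached 1 FPKM in 2 or more of the 8 libraries entered 1 limma fit (limma 3.58.1, R 4.3.3) of 4 group means with a variance trend, 4 residual and 5.23 prior degrees of freedom, and Benjamini-Hochberg adjustment over all genes at 0.05. The procedure was tried for 1 comparison on data simulated with independent noise for each gene. The simulated data did not carry the ties among high values or shifts shared by a set of genes. That trial therefore does not bear on the mitochondrially encoded calls. P-values set a difference against a spread that limma pools over groups and genes. They do not cover the spread between separate derivations of a resistant line. The members and lists were chosen with earlier results of these data known. All 103 members were read from that fit. Named were the mitochondrially encoded genes, SDH genes, CYC1, UQCRFS1, the complex I core, isoform pairs, c-ring genes, the 8 largest rises and falls that passed per comparison, and up to 4 genes per list; the remaining genes mentioned were named to account for all members or after their values were seen. Some genes that this rule or the marker list names are not reported here. Gene order, used for the 20 tested neighbours on either side, and strand came from GENCODE v29; coordinates came from RefSeq. Same-numbered libraries were checked for pairing, with correlations of their deviations from group means between −0.12 and 0.10 over all genes, so the number is taken as a name only. Alternatives changed the pseudocount, filter, variance trend, centring, groups fitted, replicate block and libraries used.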

Additional observations from a re-analysis of the deposited data

How the results depend on the processing

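Of 275 member and comparison pairs, 94 passed as reported. Of these, 38 passed in every alternative, and 48 did so when libraries were not left out. Among 4340 values under alternatives, 4065 kept their direction and side of the threshold, 226 no longer passed, 48 passed newly, and 1 called value changed sign: MT-ATP8 between the lines under OTX015 was −0.18 without replicate 2 of the OTX015-treated P/R cells and 0.238 without their replicate 1, and the value as reported, 0.03, did not pass. Another 135 values that passed in neither setting changed sign. Pseudocounts, centring and, with 1 exception below, fitting the compared groups alone kept the counts within 1.5 times those reported, except that 1 mitochondrially encoded gene passed for a lower response in P/R cells with a pseudocount of 5, and 1 with a filter at a mean of 5 FPKM, against 0 as reported.

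Without the filter, over 16730 genes, mitochondrially encoded genes lower under OTX015 in P/R cells numbered 1, those higher in parental cells 2, those higher in untreated P/R cells 5, and those higher and lower in P/R cells under OTX015 0 and 0. Nuclear members lower under OTX015 in P/R cells then numbered 8, and those lower in untreated P/R cells 2. Without the variance trend, nuclear members higher and lower under OTX015 numbered 6 and 3 in P/R cells and 9 and 7 in parental cells. Mitochondrially encoded genes lower under OTX015 in P/R cells then numbered 2. Between the lines, nuclear members lower without drug numbered 2, nuclear members higher and lower with drug 7 and 1, and mitochondrially encoded genes higher and lower with drug 0 and 0. With only the groups compared, 0 mitochondrially encoded genes were lower in P/R cells under OTX015. The cause of these changes was not tested. The difference in response uses all groups and was not refitted on fewer.

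Leaving out each library in turn leaves a group with 1 library, assumed to vary like the others. Mitochondrially encoded genes then numbered 0 to 0 higher and 1 to 7 lower for OTX015 in P/R cells, 2 to 6 higher and 0 to 2 lower for OTX015 in parental cells, 6 to 11 higher and 0 to 0 lower between untreated lines, 0 to 5 higher and 0 to 2 lower between treated lines, and 0 to 0 higher and 0 to 1 lower for the difference in response. Nuclear members numbered 6 to 16 higher and 4 to 15 lower for OTX015 in P/R cells, 9 to 20 and 7 to 17 in parental cells, 6 to 13 and 0 to 6 between untreated lines, and 8 to 13 and 1 to 5 between treated lines. With the replicate block, mitochondrially encoded genes higher in untreated P/R cells numbered 10 and nuclear members lower under OTX015 numbered 12 in P/R cells and 13 in parental cells, and no count moved by over 1.5 times; the block is not taken as a pairing, since the labels give only a number. Depth is unknown, and 2 libraries per group limit the precision of each value.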
